A study of Mus musculus with 16 samples.

Results

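Drd1, Drd2, Adora2a, Ppp1r1b, Rgs9, Pde10a, Penk and Tac1 are 8 genes that mark the projection neurons of the striatum, and they were described here in RNA of mouse brain, across 4 genotype groups and in single libraries. They were found by gene name in the deposited count table, which held 1 entry for each of the 8 among 54532 entries. All 8 passed the filter on low counts. The 16 libraries were made from brain RNA of female mice, all 9 months old. Ch25h genotype (+/+ or -/-) was crossed with tau status (Tau- or Tau+), with 4 libraries for each combination. Ch25h encodes an enzyme that turns cholesterol into an oxysterol, -/- marks animals without a working copy, and Tau+ was taken to mean that the animals carry a transgene for tau. The strain, the transgene and the promoter that drives it are not given in the sources used here. Frontal cortex is the tissue in the labels and hippocampus in the text of the series, and neither source names the striatum. Nothing in the labels says that libraries of a group came from separate animals, so p-values measure the spread between these libraries, which may be technical.

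Projection neurons are the main cell class of the striatum, a large nucleus beneath the cortex. They use GABA and fall into the direct pathway, which carries the dopamine D1 receptor and the peptide substance P, and the indirect pathway, which carries the dopamine D2 receptor, an adenosine receptor and enkephalin. The D1 receptor raises cyclic AMP and the D2 receptor lowers it, and the regulators DARPP-32, RGS9 and PDE10A act on this signal in both cell types. Several of the 8 genes are also used outside the striatum, by cortical interneurons or cortical projection neurons among others. In bulk tissue, fewer cells of a type and less RNA per cell cannot be told apart.

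RefSeq promoter windows (GRCm38.p6, 250 bases before to 50 after a gene start) matched 5 of the 8 genes, in 7 windows. The windows of Drd1 and Drd2 are printed because these receptors define the pathways and had the narrowest and the widest range over libraries of the 8, and that of Tac1 because it alone of the 7 held a cyclic AMP response motif. Capitals mark motif matches.
Drd1, chr13:54055609-54055908, minus strand: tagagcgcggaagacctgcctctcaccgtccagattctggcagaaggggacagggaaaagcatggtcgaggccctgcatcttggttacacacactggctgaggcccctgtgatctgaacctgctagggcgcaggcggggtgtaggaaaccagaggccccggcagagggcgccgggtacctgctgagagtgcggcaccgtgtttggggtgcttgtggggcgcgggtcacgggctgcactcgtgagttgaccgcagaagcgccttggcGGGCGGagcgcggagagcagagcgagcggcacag
Drd2, chr9:49340153-49340452, plus strand: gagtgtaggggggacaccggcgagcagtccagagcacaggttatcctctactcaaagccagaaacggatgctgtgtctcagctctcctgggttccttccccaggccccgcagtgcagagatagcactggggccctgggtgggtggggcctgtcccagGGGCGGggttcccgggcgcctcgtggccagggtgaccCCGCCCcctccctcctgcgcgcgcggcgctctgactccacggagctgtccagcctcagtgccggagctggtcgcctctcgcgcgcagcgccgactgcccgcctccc
Tac1, chr6:7554811-7555110, plus strand: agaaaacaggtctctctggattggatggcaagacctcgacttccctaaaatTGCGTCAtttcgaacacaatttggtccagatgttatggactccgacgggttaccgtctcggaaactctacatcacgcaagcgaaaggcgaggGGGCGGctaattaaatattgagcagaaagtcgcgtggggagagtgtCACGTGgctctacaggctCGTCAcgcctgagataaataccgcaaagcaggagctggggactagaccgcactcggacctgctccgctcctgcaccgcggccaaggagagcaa
The motifs searched, on both strands, were the cyclic AMP response element TGACGTCA (in 1.79% of 32851 windows of this length), its core TGACG (20.8%), the variant TGCGTCA (2.12%), the GC box GGGCGG (35.7%), the TATA box TATAAA (13.6%) and the E-box CACGTG (7.15%). A match describes the letters and shows no binding. All 7 windows held a GC box. In Tac1 the capitals are, in order, the variant TGCGTCA, whose last bases are also a reverse-strand core, then the GC box, the E-box and a second reverse-strand core, CGTCA. The capitals in Drd1 and Drd2 are GC boxes.

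Totals were 15530352 to 25602500 counts per library. Limits drawn from depth cover counting error only. Ch25h was counted 5 to 30 times in each Ch25h+/+ library and 0 times in each of the 8 Ch25h-/- libraries. The limit that a count of 0 allows, 3 counts, was 0.117 to 0.193 CPM (counts scaled to a common library total) there. Markers of cortical projection neurons summed to 1878 to 2526 CPM and those of hippocampus to 121 to 276 CPM, with all 8 genes of each list above 3 counts in at least 1 library. A ribosomal RNA entry lay at 1000 CPM or more in 7 of 8 Ch25h-/- libraries and in no other, so this library class nearly coincides with the genotype. Choroid plexus markers spanned 15.6 to 2771 summed CPM across libraries.

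Levels below are CPM on library sizes scaled by the trimmed mean of M-values (TMM), given in the order of replicates 1 to 4, whose numbers carry no order. Replicate 3 of Ch25h+/+ Tau- stood apart before any comparison: it was the highest of 16 libraries for 7 of the 8 genes, and the second highest for Pde10a. Replicate 4 of the same group came second for 6 of the 8 (not Drd1 and Pde10a). Comparisons of the 8 genes that use Ch25h+/+ Tau- are therefore also given without these 2 libraries. They were chosen after the values were seen, and leaving out the highest libraries lowers that group by construction.

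The receptors came first. Adora2a (chromosome 10, 75316877 to 75334784, plus strand), the adenosine receptor of the indirect pathway, was at 7.16, 4.27, 19.5 and 11.3 CPM in Ch25h+/+ Tau-, at 3.82, 3.83, 4.14 and 3.59 in Ch25h+/+ Tau+, at 2.11, 5.65, 7.83 and 6.19 in Ch25h-/- Tau-, and at 3.25, 2.34, 4.09 and 2.06 in Ch25h-/- Tau+. Every Ch25h+/+ Tau- library lay above every Tau+ library of either Ch25h genotype, with the lowest at 4.27 beside a highest of 4.14, and replicates 3 and 4 lay above all other libraries. Group means were 10.5 ± 6.61, 3.84 ± 0.223, 5.45 ± 2.41 and 2.93 ± 0.923 CPM (SD, n = 4 each, in the same order of groups).

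Drd2 (chromosome 9, 49340627 to 49408177, plus strand), the D2 receptor, was at 3.28, 2.24, 8.89 and 4.79 CPM in Ch25h+/+ Tau-, at 0.801, 1.98, 2.46 and 1.54 in Ch25h+/+ Tau+, at 1.51, 2.88, 3.86 and 3.12 in Ch25h-/- Tau-, and at 1.17, 2.14, 1.99 and 1.37 in Ch25h-/- Tau+. The group means came in the same order as those of Adora2a, but the groups compared overlapped throughout. Drd2 was also the least counted of the 8, with 13 to 206 counts per library. Its group means were 4.80 ± 2.92, 1.70 ± 0.706, 2.84 ± 0.982 and 1.67 ± 0.469 CPM (SD, n = 4 each).

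Drd1 (chromosome 13, 54051183 to 54055705, minus strand), the D1 receptor of the direct pathway, was at 11.46, 8.15, 13.5 and 8.01 CPM in Ch25h+/+ Tau-, at 8.99, 10.5, 7.90 and 7.05 in Ch25h+/+ Tau+, at 9.88, 10.8, 12.1 and 9.82 in Ch25h-/- Tau-, and at 8.80, 9.88, 11.1 and 10.9 in Ch25h-/- Tau+. The groups overlapped throughout. Replicate 4 of Ch25h+/+ Tau-, which was second for Drd2 and Adora2a, ranked 14 of 16 for Drd1. Means were 10.3 ± 2.68, 8.62 ± 1.5, 10.6 ± 1.07 and 10.2 ± 1.04 CPM (SD, n = 4 each).

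Of the signalling regulators, Ppp1r1b (chromosome 11, 98348404 to 98357796, plus strand) encodes DARPP-32, an inhibitor of protein phosphatase 1 when cyclic AMP is high. It was at 80.0, 80.8, 127.9 and 120.8 CPM in Ch25h+/+ Tau-, at 80.1, 83.9, 91.0 and 97.5 in Ch25h+/+ Tau+, at 61.7, 83.5, 63.5 and 94.9 in Ch25h-/- Tau-, and at 69.2, 56.6, 75.2 and 76.5 in Ch25h-/- Tau+. Replicates 3 and 4 of Ch25h+/+ Tau- lay above all others, and the Ch25h+/+ Tau+ and Ch25h-/- Tau+ libraries did not overlap. Means were 102.4 ± 25.5, 88.1 ± 7.70, 75.9 ± 16.1 and 69.4 ± 9.09 CPM (SD, n = 4 each). The antisense gene 1700003D09Rik overlaps Ppp1r1b, and the use of strand in counting is not given in the sources used here, so its counts may hold reads of both.

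Rgs9 (chromosome 11, 109225355 to 109298129, minus strand) encodes a regulator that speeds the shutdown of G proteins below the D2 receptor. Its means were 15.5 ± 4.19, 9.83 ± 2.7, 11.3 ± 2.29 and 9.35 ± 1.28 CPM (SD, n = 4 each), and its highest values were 19.9 and 18.2 CPM in Ch25h+/+ Tau- replicates 3 and 4, against at most 13.5 CPM elsewhere. Pde10a (chromosome 17, 8525372 to 8986648, plus strand) encodes a phosphodiesterase that breaks down cyclic AMP and cyclic GMP. It was at 58.8, 75.7, 90.7 and 56.3 CPM in Ch25h+/+ Tau-, at 30.5, 80.0, 78.2 and 68.7 in Ch25h+/+ Tau+, at 85.4, 67.8, 98.3 and 79.8 in Ch25h-/- Tau-, and at 53.5, 54.7, 61.9 and 62.4 in Ch25h-/- Tau+. Pde10a did not share the group pattern of the other regulators: its highest library was Ch25h-/- Tau- replicate 3, and the lowest value, 30.5 CPM in Ch25h+/+ Tau+ replicate 1, lay below all other libraries. That library was also the lowest for Drd2 and Rgs9. The antisense models Gm15425, Gm17087 and Gm15426 overlap Pde10a, with the same limit as for Ppp1r1b.

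Of the peptide precursors, Penk (chromosome 4, 4133531 to 4138819, minus strand), which gives enkephalin, was at 41.9, 28.4, 77.6 and 48.3 CPM in Ch25h+/+ Tau-, at 36.3, 35.8, 34.8 and 26.8 in Ch25h+/+ Tau+, at 33.4, 26.9, 42.6 and 36.9 in Ch25h-/- Tau-, and at 27.9, 28.3, 26.7 and 31.9 in Ch25h-/- Tau+. Its highest 2 libraries were again replicates 3 and 4 of Ch25h+/+ Tau-, while replicate 2 of that group lay among the low values of the other groups. The gene A830012C17Rik lies on the opposite strand of Penk. Tac1 (chromosome 6, 7554879 to 7565834, plus strand), which gives substance P, spanned 9.03 to 16.9, 7.0 to 11.4, 6.93 to 9.20 and 7.18 to 9.78 CPM in the groups in the same order, with means of 12.4 ± 3.34, 9.05 ± 2.13, 8.32 ± 1.08 and 8.22 ± 1.11 CPM (SD, n = 4 each). Its groups overlapped in all comparisons.

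**Figure D1:**
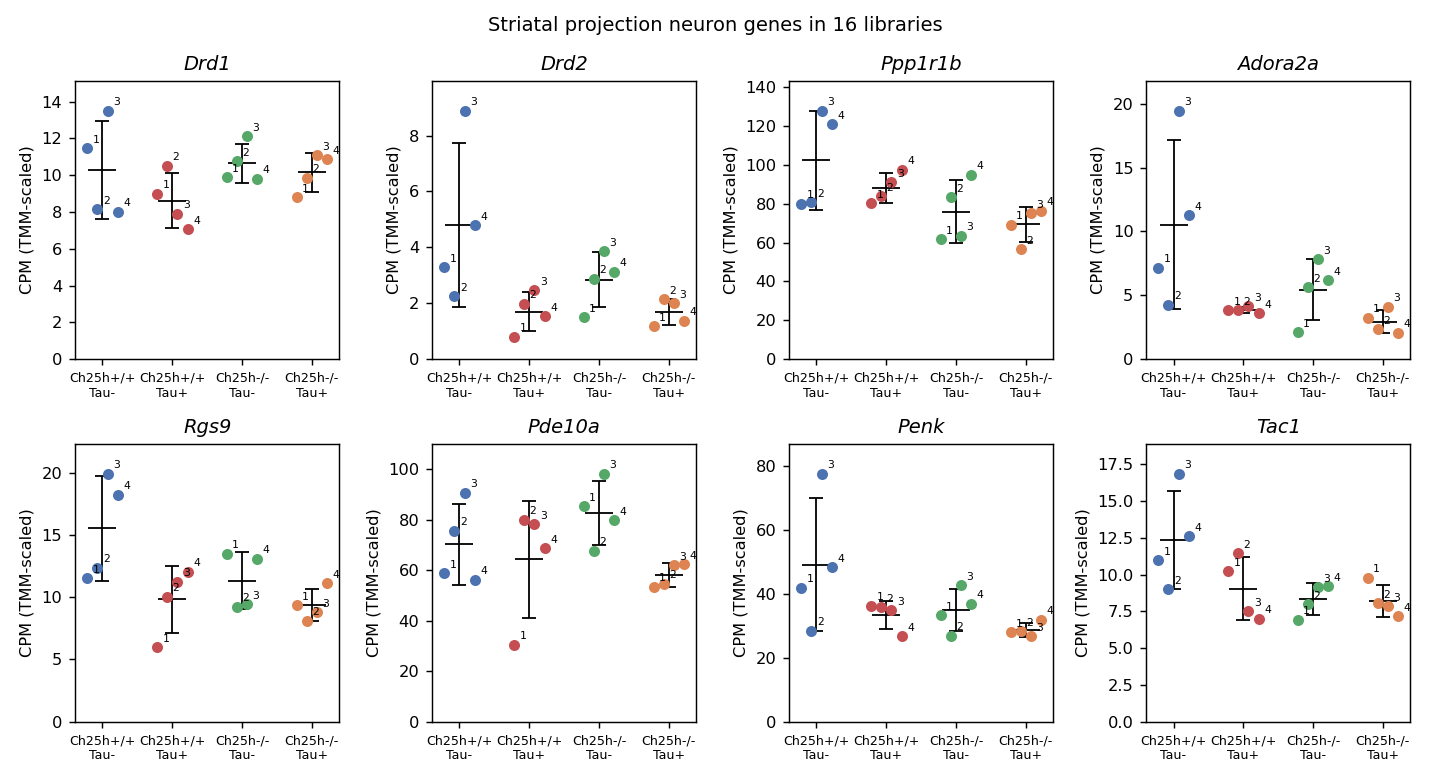
Level of each of the 8 genes (vertical axes, TMM-scaled CPM from 0) in the 16 libraries, by group (horizontal axes). Points are libraries with their replicate number, and bars show the mean ± SD of 4; replicate 3 of Ch25h+/+ Tau- is the highest point in 7 of the 8 panels, the exception being Pde10a.

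The 8 genes differed in how widely they varied. The highest library was 11.1 times the lowest for Drd2 and 9.44 times for Adora2a, then 3.34 times for Rgs9, 3.22 for Pde10a, 2.91 for Penk, 2.44 for Tac1, 2.26 for Ppp1r1b and 1.92 for Drd1. Within groups, the SD of log2(CPM + 0.5) was 0.606 for Adora2a and 0.540 for Drd2, and only 1.66% and 2.45% of the 17736 genes tested had a larger one. For Drd1 it was 0.235, which 37.3% of genes exceeded, and the median over all genes was 0.189. Fold differences of Drd2 and Adora2a thus carry the widest error of the 8.

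Per length, in TPM computed from the counts (counts per exon length, as a share of their sum over all genes with a length), Ppp1r1b was highest, with a mean of 104.3 ± 23.0 (SD over all n = 16 libraries), followed by Penk at 81.4 ± 27.5, Pde10a at 19.6 ± 4.93, Tac1 at 10.2 ± 2.67, Drd1 at 9.98 ± 1.77, Adora2a at 6.76 ± 5.13, Rgs9 at 6.56 ± 1.95 and Drd2 at 3.94 ± 2.73. The largest step lay between Penk and Pde10a, whose ranges over libraries did not overlap (60.05 to 170.02 against 8.20 to 29.1). All other neighbours in this order overlapped, and Tac1 and Drd1, like Adora2a and Rgs9, differed in mean by less than their SD.

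The first comparison asked how tau status related to these genes in animals with Ch25h. All 8 genes had a log2 fold change below 0 for Ch25h+/+ Tau+ against Ch25h+/+ Tau-, and none passed an adjusted p of 0.05 in edgeR's quasi-likelihood test with Benjamini-Hochberg adjustment over 17736 genes. In the same fit 1.56% of all genes passed. The indirect pathway receptors came nearest: Drd2 was 2.80-fold lower (log2 fold change -1.49, SE 0.39, adjusted p = 0.0658) and Adora2a 2.75-fold lower (-1.46, SE 0.38, adjusted p = 0.0662). Rgs9 was 1.57-fold lower (-0.65, SE 0.21, adjusted p = 0.189), Penk 1.47-fold lower (adjusted p = 0.331) and Tac1 1.37-fold lower (adjusted p = 0.409). The smallest differences were in Drd1 (-0.26, SE 0.17), Ppp1r1b (-0.22, SE 0.16) and Pde10a (-0.13, SE 0.21). At an unadjusted p under 0.05 the count was 5 of 8, beside 9.38% of all genes, and the median log2 fold change of the 8 was -0.51, beside -0.01 over all genes, of which 52.2% were below 0. Libraries of the groups did not overlap for 1 of the 8, Adora2a, where 5.86% of all genes had no overlap. Summed markers of microglia and astrocytes were higher in the same Tau+ group, without overlap: the summed CPM of microglia markers ranged from 193 to 207 across Ch25h+/+ Tau- libraries but from 233 to 285 across the Tau+ ones, and that of astrocyte markers from 1391 to 1489 and from 1498 to 1877. Oligodendrocyte markers overlapped (2268 to 3116 and 2276 to 4324 CPM), and of the 4 microglia markers only Csf1r (86.4 to 96.8 and 117.6 to 139.6 CPM) was free of overlap by itself. Markers of cortical projection neurons were lower in Tau+, also without overlap, with sums of 2440 to 2526 CPM for Tau- and 2260 to 2374 for Tau+. The part of these cell types in the levels of the 8 genes was not tested.

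Whether Drd2 and Adora2a passed depended on single libraries and on the method. Both passed with DESeq2 (adjusted p = 0.00785 and 0.0464), with no filter on low counts (0.00356 and 0.00118) and without Ch25h+/+ Tau- replicate 2 (0.0264 and 0.0175), and Adora2a also without Ch25h-/- Tau- replicate 1 (0.0297). Of all genes, DESeq2 called 2.39% in this comparison, the test with no filter 1.14%, and the fits with 1 library left out 0.892 to 1.66%. Over every alternative run, the adjusted p ranged from 0.00356 to 0.819 for Drd2 and from 0.00118 to 0.866 for Adora2a. Without Ch25h+/+ Tau- replicates 3 and 4, the log2 fold changes were -0.68 (SE 0.39) for Drd2 and -0.57 (SE 0.36) for Adora2a, that of Ppp1r1b was 0.14 (SE 0.16), the median of the 8 was -0.16, and 7 of 8 were below 0.

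In animals without Ch25h, the same 8 of 8 log2 fold changes were below 0 for Tau+ against Tau-, with a median of -0.28 (0.01 over all genes, 47.2% below 0). None passed the threshold, each with an adjusted p of 1.0 in edgeR's quasi-likelihood test, where 0.0395% of all genes passed, and 2 of 8 had an unadjusted p under 0.05, beside 3.68% of all genes. Adora2a was 1.84-fold lower (-0.88, SE 0.40), Drd2 1.72-fold lower (-0.78, SE 0.41) and Pde10a 1.43-fold lower (-0.51, SE 0.22), while Tac1 (-0.01, SE 0.19) and Drd1 (-0.07, SE 0.17) lay near 0. Pde10a was the 1 gene of the 8 without overlap, all Ch25h-/- Tau- libraries being at 67.8 CPM or more and all Ch25h-/- Tau+ libraries at 62.4 or less. Of all genes 2.14% had no overlap. The groups compared hold none of the libraries that stood apart, but their spread enters the fit. Without them the fold differences were nearly the same (Adora2a -0.89, SE 0.31, Drd2 -0.79, SE 0.33). In that edgeR fit 3 of 8 had an unadjusted p under 0.05, a share that was not computed there over all genes. Each of the 8 had an adjusted p of 1.0, where 0.0383% of all genes passed.

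Ch25h loss was compared next, among Tau- animals. Of the 8 genes, 6 had a log2 fold change below 0 for Ch25h-/- Tau- against Ch25h+/+ Tau-, and none passed in edgeR's quasi-likelihood test, where 1.03% of all genes did. With 1 library left out, that share of all genes was 0.0167 to 7.25%. Adora2a was 1.94-fold lower (-0.96, SE 0.38, adjusted p = 0.158), Drd2 1.70-fold lower (-0.76, SE 0.38, adjusted p = 0.259), Tac1 1.49-fold lower (-0.57, SE 0.19, adjusted p = 0.108) and Ppp1r1b 1.35-fold lower (-0.43, SE 0.16, adjusted p = 0.138). Penk (-0.49, SE 0.21) and Rgs9 (-0.46, SE 0.21) lay in the same range, while Drd1 (0.05, SE 0.17) and Pde10a (0.23, SE 0.21) were at or above 0. The median was -0.47 (0.01 over all genes, 48.6% below 0), and 5 of 8 had an unadjusted p under 0.05, beside 20.9% of all genes. No gene of the 8 was free of overlap between these groups, beside 16.2% of all genes. With DESeq2, which called 7.16% of all genes with an adjusted p, Tac1 passed (adjusted p = 0.0472). Without Ch25h+/+ Tau- replicates 3 and 4 the median was -0.03 with 4 of 8 below 0, Adora2a was at -0.06 (SE 0.36) and Drd2 at 0.05 (SE 0.39). All 4 Ch25h-/- Tau- libraries were of the class rich in ribosomal RNA and no Ch25h+/+ library was, so class and genotype cannot be told apart here. The summed markers of cortical projection neurons were lower as well, at 1878 to 2324 CPM in Ch25h-/- Tau- against 2440 to 2526 in Ch25h+/+ Tau-, and their part was not tested. A covariate for class, which can be fitted only because Ch25h-/- Tau+ replicate 1 is of the other class, put Drd2 at -1.40 and Adora2a at -0.77, with an adjusted p of 1.0 each.

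Among Tau+ animals, Ch25h loss went with a log2 fold change below 0 in 7 of 8 genes, at a median of -0.14 (0.004 over all genes, 49.3% below 0). None passed in edgeR's quasi-likelihood test, beside 3.55% of all genes (0.602 to 9.42% with 1 library left out). Ppp1r1b was 1.27-fold lower (-0.35, SE 0.16, adjusted p = 0.196), with no overlap of the libraries and as the 1 gene at an unadjusted p under 0.05. Of all genes 10.2% had no overlap and 23.9% had such a p, so the count of 1 in 8 lay below the latter share. Adora2a (-0.38, SE 0.40) and Drd2 (-0.06, SE 0.41) differed by less than their SE, and Drd1 was the 1 gene above 0 (0.23, SE 0.17). Of the Ch25h-/- Tau+ libraries, 3 of 4 were rich in ribosomal RNA, and with the covariate for class Drd2 was at -0.55 (adjusted p = 0.976). Summed microglia markers did not overlap here either, at 233 to 285 CPM with Ch25h and 192 to 220 CPM without it, and their part was not tested. The 4 markers did not move as one: Csf1r and Tmem119 were lower without overlap, Cx3cr1 overlapped, and P2ry12 was at 27.0 to 29.0 CPM with Ch25h and 24.0 to 39.0 without it.

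The interaction asked whether the tau difference depended on Ch25h. It was above 0 for 7 of the 8 genes (median 0.32, and 0.02 over all genes), with Drd2 at 0.70 (SE 0.56), Adora2a at 0.58 (SE 0.55) and Tac1 at 0.44 (SE 0.27), and below 0 for Pde10a (-0.39, SE 0.30). None passed in edgeR's quasi-likelihood test (adjusted p = 1.0 each, 0 of 8 at an unadjusted p under 0.05), beside 0.0338% of all genes. Without Ch25h+/+ Tau- replicates 3 and 4 the median was -0.16, and 6 of 8 values were below 0. The tau difference in the 8 genes was therefore not shown to differ between the Ch25h genotypes.

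**Figure D2:**
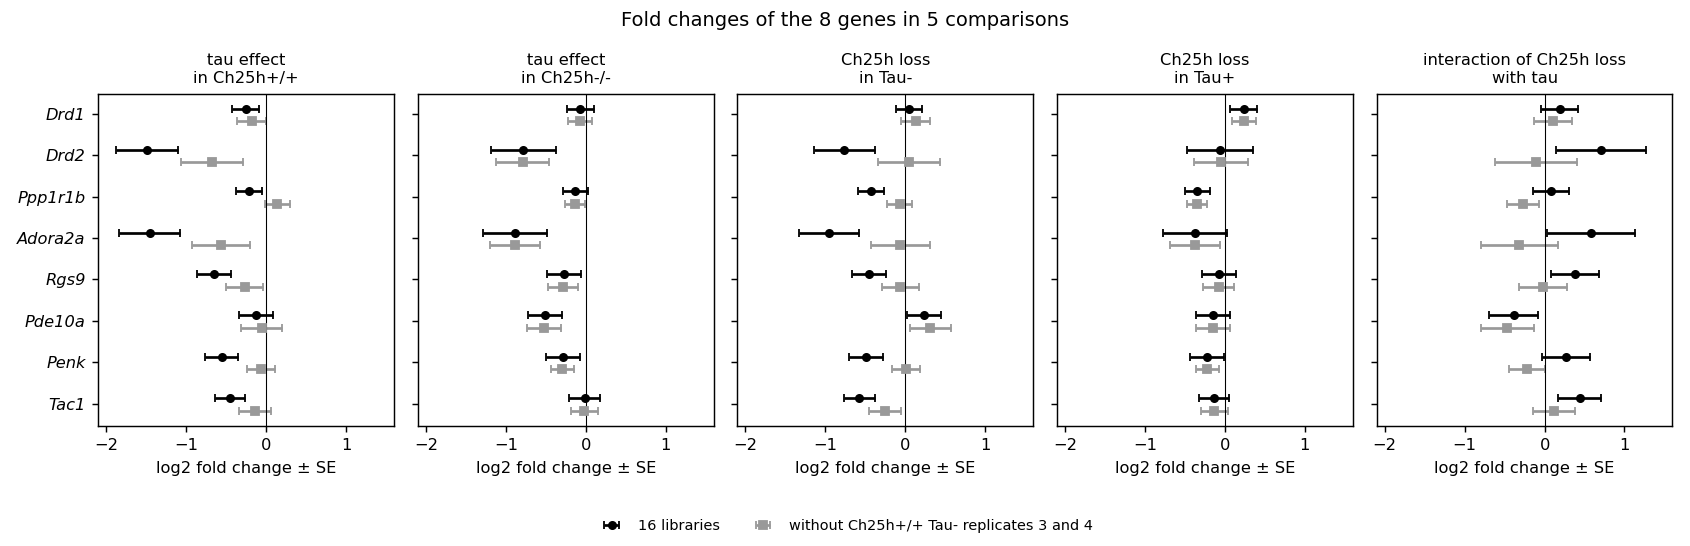
Log2 fold change ± SE (horizontal axes) of each of the 8 genes (vertical axis) in the 5 comparisons, from the fit of 16 libraries (black circles) and without Ch25h+/+ Tau- replicates 3 and 4 (grey squares). In the tau effect in Ch25h+/+ and in Ch25h loss in Tau-, grey squares lie nearer to 0 than black circles for most genes; for tau in Ch25h-/- and Ch25h loss in Tau+ both nearly coincide, and in the interaction they differ, with Drd2 at 0.70 and -0.10.

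Single libraries held the largest differences. Relative to the median of the other 15 libraries, Ch25h+/+ Tau- replicate 3 was 4.76 times as high for Adora2a, 4.15 times for Drd2, 2.32 times for Penk, 1.87 times for Tac1, 1.79 times for Rgs9, 1.6 times for Ppp1r1b, 1.37 times for Drd1 and 1.34 times for Pde10a. Indirect pathway genes thus stood further out in it than the direct pathway genes Drd1 and Tac1. Replicate 4, relative to the other 14, was 2.85 times as high for Adora2a, 2.32 for Drd2, 1.72 for Rgs9 and 1.51 for Ppp1r1b. It was at 0.825 times for Pde10a and 0.811 times for Drd1. Penk and Tac1 hardly differed in it, at 1.48 and 1.47 times.

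The same could be read as a ratio within a library: the mean log2(CPM + 0.5) of Drd1 and Tac1 minus that of Drd2, Adora2a and Penk. It was -0.65 and -0.46 in Ch25h+/+ Tau- replicates 3 and 4, and 0.13 and 0.33 in replicates 1 and 2. In the other 3 groups, in the order used above, it spanned 0.06 to 0.77, -0.07 to 0.64 and 0.54 to 0.80. Group means were -0.16 ± 0.47, 0.45 ± 0.32, 0.21 ± 0.31 and 0.70 ± 0.13 (SD, n = 4 each, log2). Replicates 3 and 4 of Ch25h+/+ Tau- were the lowest of the 16 libraries. The place of 0 on this scale depends on which genes are averaged and has no meaning of its own, and a difference in the ratio does not show which gene set moved.

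Markers of other tissues in those libraries were as follows. Choroid plexus markers summed to 1183 and 1431 CPM in Ch25h+/+ Tau- replicates 3 and 4, while 4 libraries of other groups had 1637 to 2771 CPM and were the highest library for none of the 8 genes. Cholinergic markers (Chat, Slc5a7, Slc18a3 and Lhx8, which striatal interneurons share with the basal forebrain) summed to 3.24 and 2.67 CPM there, the highest of all 16 libraries, of which the lowest had 0.986. Ch25h-/- Tau- replicate 3 was all but level with the second of these, at 2.65 CPM. Lhx8 had 0 counts in 2 of 4 Ch25h+/+ Tau- libraries, 3 of 4 Ch25h+/+ Tau+, no Ch25h-/- Tau- and 4 of 4 Ch25h-/- Tau+ libraries. Blood markers were lowest in the same libraries, at 2.46 and 1.81 CPM in a range of 1.81 to 34.2. Thalamus markers, at 72.8 and 72.6 CPM in a range up to 114.6, were lowest there too. Markers of cortical projection neurons were at 2458 and 2440 CPM there, and the 4 Ch25h+/+ Tau- libraries were the highest of the 16 in this sum, with all other libraries at 2374 or less. The part of tissue content in the levels of the 8 genes was not tested.

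Other genes of striatal projection neurons came from a list of 28, of which 27 were in the table and 24 were tested. None passed the threshold in any of the 5 comparisons. For tau in Ch25h+/+, 21 of 24 were below 0, with a median log2 fold change of -0.16, and for Ch25h loss in Tau- 17 of 24, with a median of -0.18. The medians were -0.03 for tau in Ch25h-/-, -0.005 for Ch25h loss in Tau+ and 0.16 for the interaction. Without Ch25h+/+ Tau- replicates 3 and 4 the medians for tau in Ch25h+/+, Ch25h loss in Tau- and the interaction were -0.08, -0.03 and 0.10. The most abundant members of the list were Arpp21 (a cyclic AMP regulated phosphoprotein, mean 384 CPM), Ptpn5 (the phosphatase STEP, 243 CPM) and Adcy5 (the main striatal adenylyl cyclase, 196 CPM). For tau in Ch25h+/+ their log2 fold changes were -0.09 (SE 0.09), -0.16 (SE 0.07) and -0.17 (SE 0.08), and for Ch25h loss in Tau- 0.02 (SE 0.09), -0.13 (SE 0.07) and -0.25 (SE 0.08). For Ch25h loss in Tau-, DESeq2 called Adcy5 (adjusted p = 0.0301) and, named after their values were seen, Tmem158 (0.0256) and Sp9 (0.0177), all below 0. The same 3 were called by limma-voom (adjusted p = 0.0253, 0.0178 and 0.0217), in edgeR with only the 8 libraries compared (0.0427, 0.0483 and 0.0427) and without Ch25h+/+ Tau+ replicate 1 (0.0290, 0.0276 and 0.0358). Those 4 fits called 7.16%, 7.83%, 7.27% and 7.25% of all genes, against 1.03% with 16 libraries in edgeR.

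The list also shared the single library. Of 26 listed striatal genes with more than 3 counts in a library, 12 were highest in Ch25h+/+ Tau- replicate 3 and 4 in replicate 4, and 9 were lowest in Ch25h+/+ Tau+ replicate 1. The latter library was extreme outside this list too: of the 25 signalling genes described below, it was highest for 8 and lowest for 7. Ch25h+/+ Tau- replicates 3 and 4 were highest for 0 and 2 of those 25. Such counts were not made over all genes. Against the median of the other libraries, replicate 3 was 6.68 times as high for Six3, a transcription factor of D2 receptor neurons, and 2.97 times for Sh3rf2, both named after their values were seen. Arpp21 and Ptpn5, the most abundant genes of the list, did not share this: replicate 3 ranked 12 of 16 for Arpp21 and 4 for Ptpn5. Cortical neurons also express both. Adcy5, the next most abundant, was highest in replicate 3, at 1.28 times the median of the other libraries.

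**Figure D3:**
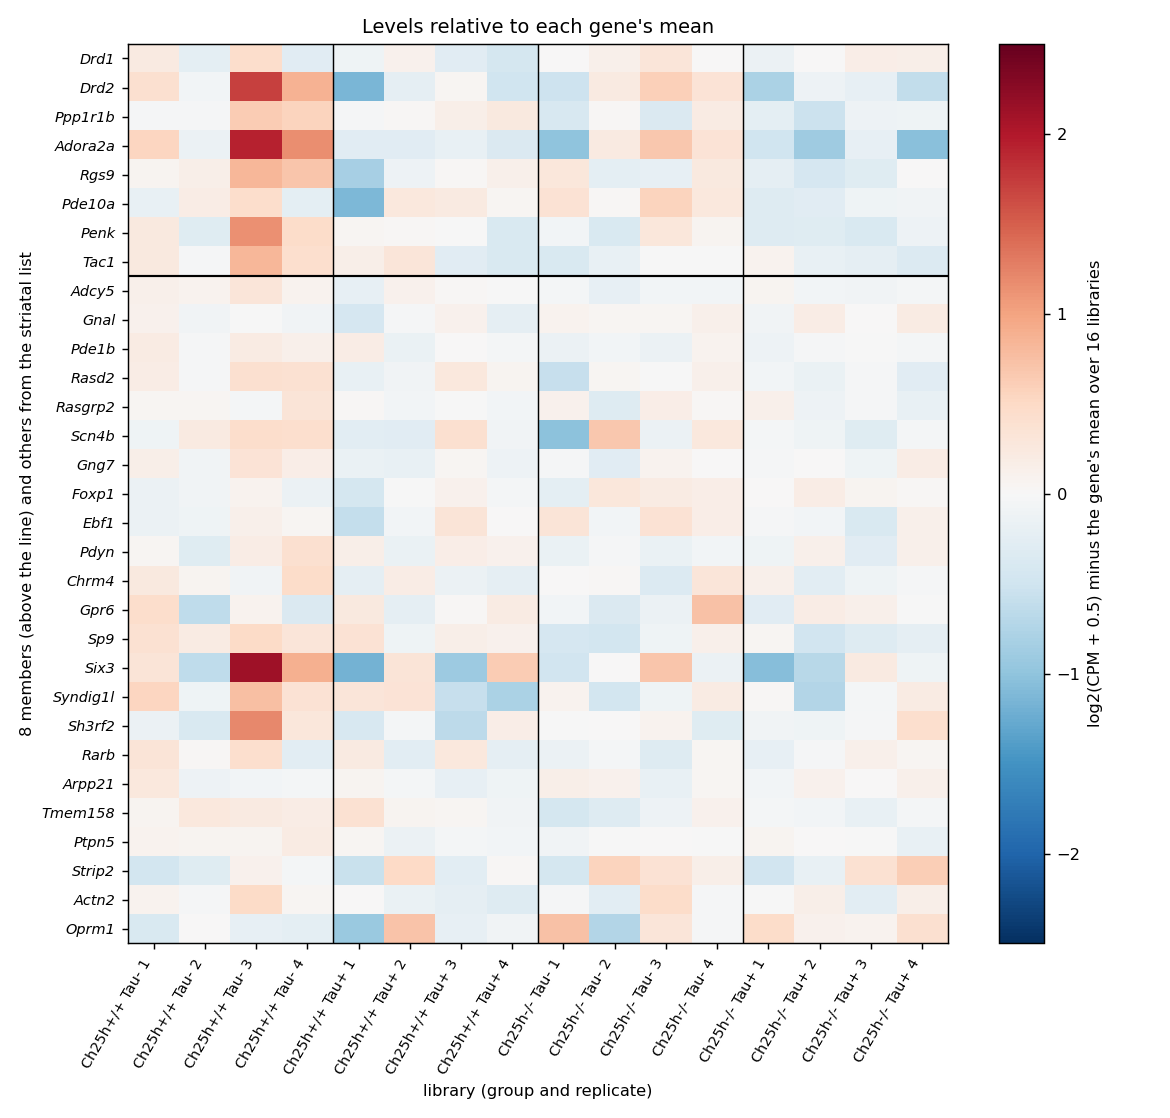
Level of the 8 genes (above the line) and of others from the striatal list (below it) in each of the 16 libraries (columns, by group and replicate), as log2(CPM + 0.5) minus the gene's mean over all libraries. Red cells gather in the column of Ch25h+/+ Tau- replicate 3, the highest library for 7 of the 8 genes, and most abundant striatal genes such as Arpp21 stay pale.

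A list of 25 genes that act with the 8 in dopamine, adenosine, opioid and cyclic AMP signalling had 24 members tested. None passed in any comparison in edgeR's quasi-likelihood test. The count below 0 was 20 of 24 for tau in Ch25h+/+ (median -0.09), 14 for tau in Ch25h-/- (median -0.01), and 12 for Ch25h loss in Tau- (median 0.001) and in Tau+ (median -0.01). Without Ch25h+/+ Tau- replicates 3 and 4, where 25 were tested, 18 were below 0 for tau in Ch25h+/+ (median -0.06) and 10 for Ch25h loss in Tau- (median 0.06). Its most abundant members were Ppp3ca, a catalytic subunit of calcineurin (mean 1224 CPM), Prkacb, a catalytic subunit of protein kinase A (559 CPM), and Cdk5r1, the activator of Cdk5 (399 CPM). For tau in Ch25h+/+ they were at -0.06 (SE 0.09), -0.11 (SE 0.08) and -0.17 (SE 0.09), within a narrower range than the receptors above. Other methods called some members, which apart from Prkacb and Cdk5r1 are named after their values were seen. For Ch25h loss in Tau-, DESeq2 called Prkaca (adjusted p = 0.0134) and Gnb5 (0.0394), and limma-voom called these (0.0134 and 0.0279) with Cdk5 (0.0351) and Cdk5r1 (0.0410), all below 0. Of all genes, DESeq2 called 7.16% and limma-voom 7.83% in this comparison. For Ch25h loss in Tau+, Prkacb was called above 0 by both (0.0481 and 0.0361), and Rgs7bp by limma-voom (0.0409), where DESeq2 called 9.79% and limma-voom 10.6% of all genes. With only the 8 libraries compared, Prkaca, Cdk5 and Gnb5 passed below 0 and Rgs7bp above 0 for Ch25h loss in Tau-, beside 7.27% of all genes. The dopamine receptor Drd5 was called above 0 there in edgeR with no filter (log2 fold change 2.27, SE 0.62, adjusted p = 0.0448, beside 1.54% of all genes). Without Ch25h+/+ Tau+ replicate 1, edgeR called Drd5 above 0 (adjusted p = 0.0450) and Prkaca, Cdk5 and Gnb5 below 0 (0.0238, 0.0347 and 0.0320), beside 7.25% of all genes. Drd5 failed the main filter, at 1 to 33 counts per library. Its highest level, 1.84 CPM, was in Ch25h-/- Tau- replicate 4, in a group at 0.894 ± 0.698 CPM (SD, n = 4). The earlier choice of both lists was made with results of these data known, and their counts describe these libraries only.

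Across the 16 libraries, levels of the 8 genes were compared in all 28 pairs on log2(CPM + 0.5). Pearson's r was above 0 in 26 pairs, with a median of 0.57. By permutation p, adjusted over the 28 pairs, 15 pairs passed 0.05 by Pearson's r and 1 by Spearman's rho. That 1 pair was Drd2 with Adora2a (r = 0.884, permutation p = 1e-05, the smallest that 100000 permutations can give, adjusted p = 0.00028; rho = 0.903, permutation p = 2e-05, adjusted p = 0.00056). Without the 2 libraries farthest from the median of Drd2, r was 0.898. Within the 7 libraries rich in ribosomal RNA r was 0.936 and within the other 9 it was 0.934. Penk with Tac1 had r = 0.821 (adjusted permutation p = 0.00294) and rho = 0.679 (adjusted permutation p = 0.0666), and without the 2 farthest libraries r was 0.504, so that relation rested on those libraries. Adora2a with Penk went from 0.809 to 0.481 in the same way.

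Most of these relations depended on Ch25h+/+ Tau- replicate 3. Without that library 1 pair passed, and without replicates 3 and 4 none did by Pearson's r and 1 by rho. In the 12 libraries of the other groups 0 pairs passed by either, at a median r of 0.25. The highest r in the 14 libraries was that of Rgs9 with Pde10a, at 0.740 (adjusted permutation p = 0.0729), followed by Drd2 with Adora2a at 0.723 (adjusted permutation p = 0.0729). Rgs9 and Pde10a were both lowest in Ch25h+/+ Tau+ replicate 1. Without the 2 of 16 libraries farthest from the median of Rgs9, their r was 0.081. The permutations over 16 libraries did not keep the 4 groups apart. With group means subtracted from all 16 libraries, 9 pairs passed by Pearson's r and 0 by rho, so the call of Drd2 with Adora2a by rho was lost, its r being 0.800. Within the 7 libraries rich in ribosomal RNA 0 pairs passed, and within the other 9, 13 did. Drd1 was in none of the 15 pairs and Pde10a in 1, with Rgs9 (r = 0.565, rho = 0.512). Drd1 with Tac1, its direct pathway partner, had r = 0.368 (rho = 0.215).

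**Figure D4:**
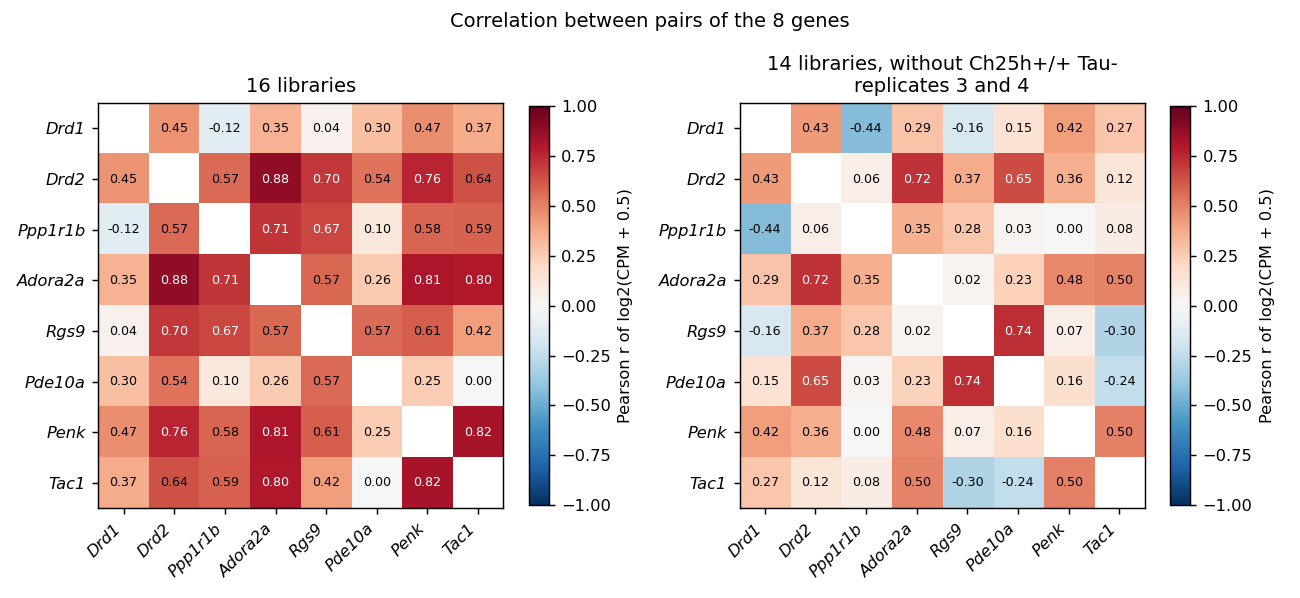
Pearson's r of log2(CPM + 0.5) for each pair of the 8 genes (rows and columns) over 16 libraries (left) and over the 14 libraries without Ch25h+/+ Tau- replicates 3 and 4 (right). Drd2 with Adora2a goes from 0.88 to 0.72, while the median over pairs goes from 0.57 to 0.25.

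Genes outside the lists were ranked by how closely they followed the 8. The measure was Pearson's r, with group means subtracted, between a gene's log2(CPM + 0.5) and the mean of the 8 genes, over 16 libraries and 13952 genes, given as a description with no test. The mean of the 8 genes was 4.36 ± 0.45, 3.80 ± 0.19, 4.0 ± 0.20 and 3.69 ± 0.07 (log2, SD, n = 4 each, in the order of groups used above). The 10 highest were Isy1 (r = 0.872), Tspan18 (0.818), Golm1 (0.815), Pkp2 (0.794), Shisa6 (0.786), Nfatc1 (0.781), Ap1ar (0.778), Gfra1 (0.766), Dtx3l (0.739) and Orai2 (0.728). The 5 lowest were Prpf38a (-0.825), Cdh20 (-0.817), the second table entry named Ccl27a (-0.800), Lama4 (-0.787) and 5033430I15Rik (-0.787). No listed striatal gene was among the 10: 2 of 21 ranked were in the first 100, Rasd2 at rank 39 and Adcy5 at rank 99. The median r of the 21 was 0.29, beside -0.005 over all genes ranked.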

How the data were processed

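RNA-seq of 16 libraries was analysed. The deposited table holds raw counts per gene and library, not normalized by the authors, per the file header and its whole-number values. Per the submitters' processing notes, STAR 2.7 and the build GRCm38 (mm10) were used. The counting program, the annotation and the use of strand are not given in the sources used here. Per the labels' protocols, a SMARTER mRNA-Seq kit was used. Replicates were numbered in record order.

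Genes passing filterByExpr over the 4 groups (17736) entered 1 fit of 16 libraries in R 4.3.3 with TMM factors, tested two-sided by the quasi-likelihood F test of edgeR 4.0.16, with Benjamini-Hochberg adjustment over all of them at 0.05 and 12 residual degrees of freedom. SE is the absolute log2 fold change over the root of F. CPM values, with a pseudocount of 0.5 on log scales, were computed from the counts. Correlations used 100000 two-sided permutations. Positions, exon lengths and GC content came from GENCODE M21 (GRCm38) by symbol. Code was tested on simulated data.

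The 8 genes and all lists were chosen with earlier results of these data known. Genes named were the 8, listed genes past the threshold (none), the 3 most abundant of the striatal and of the signalling list, and the 10 highest and 5 lowest in likeness; others are marked. The values of 1 listed gene are not reported here. Other marker lists (claustrum, olfactory bulb, septum and pallidum, cortical interneurons, oligodendrocytes, microglia, astrocytes, dopamine neurons) were read as summed CPM, which over the 16 libraries spanned 134 to 220, 5.94 to 9.93, 167 to 240, 755 to 964, 1791 to 4324, 185 to 285, 1305 to 1877 and 5.78 to 10.4 in this order. Alternatives were DESeq2 1.42.0, RLE size factors, a minimum of 1 count in all or of 50 on average, limma-voom with quality weights (limma 3.58.1), the 8 libraries compared alone, 1 surrogate variable (sva 3.50.0), library class, choroid plexus, GC content, and each library left out. Leaving out Ch25h+/+ Tau- replicates 3 and 4, or that whole group for pairs, was chosen after seeing the data.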

Additional observations from a re-analysis of the deposited data

Results flagged for a closer look

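Of 32 sets of 4 libraries, 1 for each of the 8 genes in each group, and 4 sets for the ratio of direct to indirect pathway genes, 1 held a library far from the others: Penk in Ch25h+/+ Tau+ replicate 4, at 26.8 CPM, beside 34.8 to 36.3 CPM in the other 3 libraries of the group. Its gap to the nearest was 0.841 of the group's range, above Dixon's limit for 4 samples. Chance flags about 1 in 20 such sets. Ch25h+/+ Tau- replicate 3 did not reach that limit for any of the 8 genes.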

How the results depend on the processing

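Of 1072 values of the 8 genes' log2 fold changes under alternatives, 8 passed the threshold and 36 had the other sign; the cause was not tested. The values with the other sign were, with voom, Pde10a for tau in Ch25h+/+ 0.00038 and Ppp1r1b interaction -0.076; surrogate variable, Ppp1r1b interaction -0.0050; library class, Drd1 for Ch25h loss in Tau- -0.22 and Tac1 in Tau+ 0.11; choroid plexus, Ppp1r1b interaction -8.6e-05; GC content, Tac1 for tau in Ch25h-/- 0.00029, Drd1 for Ch25h loss in Tau- -0.020 and Drd2 in Tau+ 0.027. Without Ch25h+/+ Tau- replicates 3 and 4 they were Ppp1r1b for tau in Ch25h+/+ 0.14, Drd2 0.050 and Penk 0.0027 for Ch25h loss in Tau-, and the interactions of Drd2 -0.10, Ppp1r1b -0.28, Adora2a -0.32, Rgs9 -0.015 and Penk -0.22. Leaving out single libraries gave -0.24 to 0.11 for Pde10a (tau in Ch25h+/+), -0.12 to 0.042 for Tac1 (tau in Ch25h-/-), -0.057 to 0.20 for Drd1 (Ch25h loss in Tau-), -0.28 to 0.17 for Drd2 and -0.26 to 0.024 for Rgs9 (Ch25h loss in Tau+), and -0.052 to 0.20 for Ppp1r1b and -0.051 to 0.45 for Penk (interaction). The count of the 8 that passed for tau in Ch25h+/+ was 2 with no filter (beside 1.14% of all genes), 2 with DESeq2 (2.39%) and 0 to 2 with a library left out (0.892 to 1.66%); for Ch25h loss in Tau- it was 1 with DESeq2 (7.16%). Pairs past the threshold, 15 of 28, were 9 with group means subtracted, 0 within libraries rich in ribosomal RNA, 0 without replicates 3 and 4, 0 outside Ch25h+/+ Tau-, and 1 to 15 with a library left out. With Drd1 against Drd2 alone the direct to indirect log2 ratio was 1.15, 2.10, 1.79 and 2.32 in the 4 groups; with a pseudocount of 2 it was 0.44 in Ch25h-/- Tau+, and with a library left out it was -0.32 to 0.00092 in Ch25h+/+ Tau-. Depth limits Drd2 most (13 to 206 counts). No paired analysis was possible because replicate numbers are not in the labels.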
